A study of Mus musculus with 6 samples.

Results

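The hepatocyte transporters described here are 10 genes, chosen by name, of the 34745 genes in the deposited table. They comprise 5 uptake carriers (Slc10a1, Slco1a1, Slco1a4, Slco1b2 and Slco2b1) and 5 ABC efflux pumps (Abcb11, Abcc2, Abcc3, Abcc4 and Abcb1a). Liver RNA was sequenced from WT mice that received an overdose of acetaminophen (APAP, 300 mg/kg, 12 hours, intraperitoneal) or saline after fasting for 12 hours. The Methods of the study give male C57BL/6J mice, aged 8 to 10 weeks. The labels list 3 livers per group, and the table holds 5 libraries, namely APAP replicates 1 and 3 and the saline libraries WT1, WT2 and WT3. APAP replicate 2 was not analysed here. The WT columns were taken for the saline group, which underlies all fold changes below.

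Hepatocytes take bile acids and drugs up from sinusoidal blood through basolateral carriers and secrete them, with their conjugates, across the canalicular membrane into bile. The sodium-dependent carrier Slc10a1 (NTCP) and the organic anion transporting polypeptides of the Slco family serve uptake. Abcb11 (BSEP), Abcc2 (MRP2) and Abcb1a (a P-glycoprotein) pump into bile, whereas Abcc3 (MRP3) and Abcc4 (MRP4) pump back into blood. Abcc2 and Abcc3 are known to carry APAP glucuronide. In cholestasis and after toxic injury, uptake genes are known to be lowered and the basolateral pumps to be raised in mouse liver.

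Total counts per library were between 13378445 and 15976339. Values are counts scaled to library size after TMM normalization (CPM), and tests are edgeR's quasi-likelihood test over 13734 genes with Benjamini-Hochberg adjustment, at an adjusted p under 0.05. Hepatocyte RNA was abundant in all libraries, with albumin between 51544 and 129120 CPM. The groups were also separated by sex-linked genes. Xist was at 0.764 and 1.73 CPM with APAP and between 289.6 and 914 CPM with saline, and Ddx3y was at 61.7 and 78.97 CPM with APAP with at most 1 count in a saline library. The libraries taken for saline thus go against the male sex given in the Methods. Sex-linked expression and treatment therefore cannot be told apart in any result below. Slco1a1 and Slco1a4 are known as male-predominant and female-predominant genes of mouse liver.

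The sequences just upstream of the start site are shown for the 3 transporters that passed the test, Slc10a1, Slco1b2 and Abcb11, and for Abcc4, whose libraries were higher with APAP without overlap. Each is the 200 bases before the start, 5′ to 3′ on the gene's strand, from RefSeq promoters of GRCm38.p6. The positions are chr12:80968080-80968279 (minus strand) for Slc10a1, chr6:141629318-141629517 (plus strand) for Slco1b2, chr2:69342617-69342816 (minus strand) for Abcb11 and chr14:118706220-118706419 (minus strand) for Abcc4. Capitals mark matches on either strand to 4 motifs, namely the nuclear receptor core AGGTCA, the C/EBP motif TTGCNNAA, the STAT motif TTCNNNGAA and the antioxidant response element TGACNNNGC.
Slc10a1: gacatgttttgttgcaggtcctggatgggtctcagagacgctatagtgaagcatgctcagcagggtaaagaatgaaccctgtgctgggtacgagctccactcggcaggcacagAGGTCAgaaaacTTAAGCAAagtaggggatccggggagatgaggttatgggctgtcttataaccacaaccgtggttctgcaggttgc
Slco1b2: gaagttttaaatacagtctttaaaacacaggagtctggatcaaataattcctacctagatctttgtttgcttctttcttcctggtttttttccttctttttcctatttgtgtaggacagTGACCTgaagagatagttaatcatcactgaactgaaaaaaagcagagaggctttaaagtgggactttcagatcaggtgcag
Abcb11: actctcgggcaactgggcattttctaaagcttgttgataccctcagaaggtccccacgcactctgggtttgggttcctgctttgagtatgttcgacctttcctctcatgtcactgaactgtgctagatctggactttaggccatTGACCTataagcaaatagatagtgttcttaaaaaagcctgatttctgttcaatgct
Abcc4: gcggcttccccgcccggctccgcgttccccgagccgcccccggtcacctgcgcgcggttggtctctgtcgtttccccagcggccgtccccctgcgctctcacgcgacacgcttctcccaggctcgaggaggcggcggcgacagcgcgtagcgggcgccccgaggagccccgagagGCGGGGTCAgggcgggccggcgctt
The matches in capitals are AGGTCA at −87 to −82 and the C/EBP motif at −75 to −68 in Slc10a1, AGGTCA at −81 to −76 in Slco1b2, AGGTCA at −56 to −51 in Abcb11, and TGACNNNGC at −25 to −17 in Abcc4. They do not overlap each other. Among all 32851 RefSeq windows of the same length, 11.37% held AGGTCA, 7.47% TTGCNNAA, 5.49% TTCNNNGAA and 8.60% TGACNNNGC. Of the 10 members, 9 had a window in RefSeq, and in 6 of these it lay at the start of the deposited gene. AGGTCA was present in 4 of these 6 windows and TTCNNNGAA in 0. GC content was 52.0%, 36.5% and 44.5% in the windows of Slc10a1, Slco1b2 and Abcb11 and 77.5% in that of Abcc4. These matches describe letters and no binding was measured.

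All 10 members passed the filter on low counts. With APAP, 3 of 10 were lower (Slc10a1, Slco1b2 and Abcb11) and 0 were higher, where 3.53% of all genes tested were lower and 3.70% higher. At an unadjusted P under 0.05 and a fold change of at least 1.5, the thresholds named in the study, the counts were 3 lower and 1 higher (Abcc4), against 11.2% and 12.3% of all genes. APAP and saline libraries were fully separated for 4 lower members (the same 3 and Slco1a4) and 1 higher member (Abcc4), where this held for 20.1% of all genes downward and 24.0% upward. Leaving out WT2 left 0 members called lower, and leaving out WT1 left Abcb11 alone. Without APAP replicate 1, which leaves 1 APAP library, Slc10a1, Slco1b2 and Abcb11 were no longer called. Their log2 fold changes were then −1.71, −2.36 and −2.86, and that of Slco1a4, not called in the main fit, was −3.40. The median log2 fold change was −1.26 over the 5 uptake carriers, all with fitted values below 0, and 0.04 over the 5 efflux pumps, of which 2 were below 0. Over all genes tested it was 0.03. The members were chosen with earlier results of these data known, so these counts and medians are a description.

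**Figure D1:**
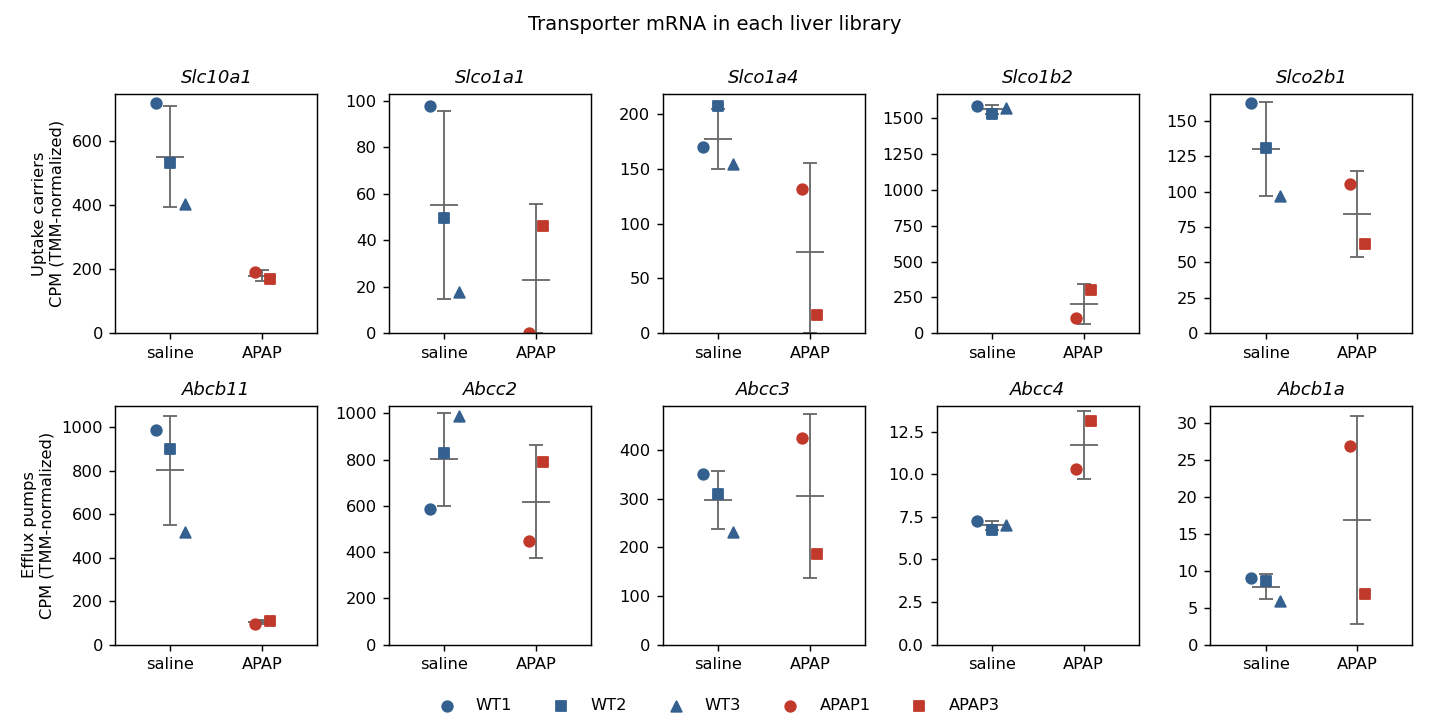
Normalized CPM of each of the 10 transporters in the 3 saline libraries (blue) and the 2 APAP libraries (red), with a linear axis from 0 in each panel. Horizontal marks are group means and bars are SD, stopped at 0 where they would pass below it. Slc10a1, Slco1b2 and Abcb11 lay below every saline library in both APAP libraries, and Abcc4 lay above.

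Slco1b2 (OATP1B2, ENSMUSG00000030236, chromosome 6 of GRCm38, 141629518 to 141686646), the liver-restricted carrier of bilirubin, bile acids and many drugs, fell furthest of the uptake carriers with an adjusted p under 0.05. It was at 103.7 and 303.7 CPM in APAP replicates 1 and 3 and at 1585, 1527 and 1567 CPM in WT1, WT2 and WT3. The saline libraries were within 1.04-fold of each other, and the APAP libraries lay far below them without overlap, although they differed 2.93-fold between themselves. It fell by 2.94 on the log2 scale (standard error, SE, 0.51, adjusted p = 0.0225 edgeR quasi-likelihood test). Leaving out APAP replicate 3 gave −3.92, and leaving out replicate 1 gave −2.36. The adjusted p was above 0.05 without APAP replicate 1 (0.0551), WT1 (0.0563) or WT2 (0.0881).

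Slc10a1 (ENSMUSG00000021135, chromosome 12, 80953185 to 80968079), the main sodium-coupled carrier of conjugated bile acids, was at 191.96 and 167.9 CPM in the APAP livers, against 716.9, 530.8 and 402.9 CPM with saline. The APAP libraries agreed within 1.14-fold and lay below all saline libraries, of which WT1 was the highest. The APAP mean was 32.7% of the saline mean, with a log2 fold change of −1.61 (SE 0.32, adjusted p = 0.0346 same edgeR test). The direction held with each library left out (−1.79 to −1.36), but the adjusted p stayed under 0.05 only without WT3. It was 0.168 and 0.147 without APAP replicates 1 and 3, and 0.0590 and 0.117 without WT1 and WT2.

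Abcb11 (ENSMUSG00000027048, chromosome 2, 69238282 to 69342616), the canalicular pump that secretes bile salts into bile, was at 95.8 and 110.02 CPM in the APAP livers, against 987.5, 897.7 and 515.2 CPM with saline. The APAP libraries were at 12.0% and 13.8% of the saline mean and within 1.15-fold of each other, and WT3 was the lowest saline library. Its log2 fold change was −2.96 (SE 0.38, adjusted p = 0.00944 same edgeR test). The adjusted p was 0.0819 without APAP replicate 1 and 0.0539 without WT2, with log2 fold changes of −2.86 and −2.87. Abcb11 and Slc10a1, which secrete and take up bile acids, were each below all saline libraries in both APAP libraries. With only 2 APAP libraries, a link between the 2 declines was not tested.

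Markers of hepatocytes were read in the same libraries as these 3 declines. Of 6 general hepatocyte markers (Alb, Apoa1, Ttr, Cps1, Serpina1c and Tat), 0 of 6 passed the test, with a median log2 fold change of −0.80, and their summed level was 65079 and 108000 CPM with APAP against 115170 to 155890 CPM with saline. Of 4 pericentral markers (Cyp2e1, Cyp1a2, Glul and Oat), 4 of 4 were lower, with a median of −3.31 and a sum of 960 and 1850 CPM against 6959 to 11683 CPM. No marker on either list was at 0. When the libraries were scaled to the 6 hepatocyte markers, an alternative added after the data were seen, Slco1b2 and Abcb11 stayed lower at −2.23 and −2.17 (adjusted p under 0.05 in edgeR's test), while Slc10a1 was at −0.79 (adjusted p = 0.0845). In whole liver, fewer hepatocytes and less RNA per hepatocyte cannot be told apart.

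None of the other 3 uptake carriers passed the test. Slco1a1 (OATP1A1, ENSMUSG00000041698, chromosome 6, 141907282 to 141946962), a carrier of steroid conjugates and other organic anions, had 0 counts in APAP replicate 1 and was at 45.9 CPM in replicate 3, against 97.9, 49.7 and 17.6 CPM with saline. APAP replicate 3 lay inside the saline range and replicate 1 outside it, so the groups overlapped. A floor of 3 counts puts replicate 1 under 0.176 CPM, at least 260.5-fold lower than replicate 3. Of 7893 genes that averaged 10 CPM or more, 0.165% had a difference as large between these 2 libraries. The log2 fold change was −1.26 (SE 1.57, adjusted p = 0.671), and was −0.26 without APAP replicate 1. Without replicate 3 it was −12.65 (adjusted p = 0.0393), a value that depends on the prior count because only the library with 0 counts then remained. The saline libraries also differed 5.57-fold.

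Slco1a4 (OATP1A4, ENSMUSG00000030237, chromosome 6, 141805440 to 141856199), a related carrier that is inducible through PXR, showed the opposite order. It was at 131.7 CPM in APAP replicate 1 and at 16.7 CPM in replicate 3, and at 169.8, 207.3 and 154.3 CPM with saline. The groups did not overlap, but replicate 1 kept 74.3% of the saline mean and replicate 3 only 9.42%, a 7.89-fold difference that 0.709% of genes matched. The fitted log2 fold change was −1.26 (SE 0.74, adjusted p = 0.352), and was −3.40 (adjusted p = 0.0192) without APAP replicate 1 and −0.44 without replicate 3. Slco1a1 and Slco1a4 lie 51.1 kb apart on the minus strand and share few sequences, since 2.26% of the 50-base words of Slco1a1 and 2.73% of those of Slco1a4 occur in another gene.

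Slco2b1 (OATP2B1, ENSMUSG00000030737, chromosome 7, 99657804 to 99711340), a carrier with a wide tissue distribution, was at 105.7 and 62.7 CPM in the APAP livers, against 162.8, 131.0 and 96.7 CPM with saline. APAP replicate 1 was above WT3, so the groups overlapped. Its log2 fold change of −0.63 (SE 0.33, adjusted p = 0.296) was the smallest in size of the 5 carriers and was 0.23 when scaled to the hepatocyte markers. Gm15635 and other genes shared 8.31% of its 50-base words.

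**Figure D2:**
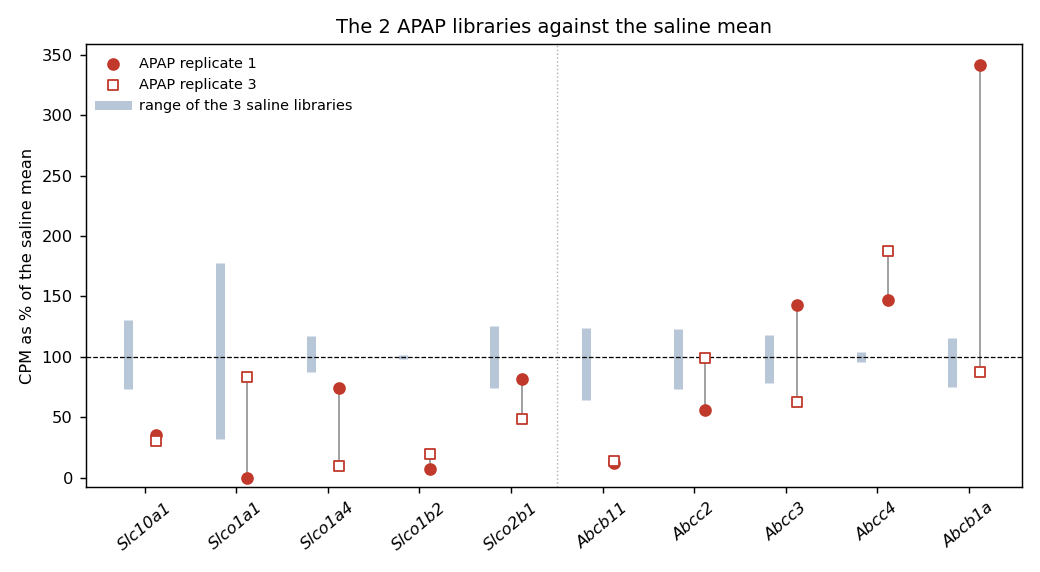
CPM of each transporter in APAP replicate 1 (filled circles) and replicate 3 (open squares) as a percent of the mean of the 3 saline libraries (dashed line at 100), with the range of the saline libraries as a bar. By fold difference, which the linear axis does not show directly, the APAP libraries were within 1.27-fold of each other for Slc10a1, Abcb11 and Abcc4. They differed by the largest folds for Slco1a1, Slco1a4 and Abcb1a.

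Among the canalicular pumps, Abcc2 stood apart from Abcb11. Abcc2 (ENSMUSG00000025194, chromosome 19, 43782192 to 43840740), which secretes glutathione and glucuronide conjugates, was at 446 and 790 CPM in the APAP livers, against 587, 829 and 987 CPM with saline. APAP replicate 3 lay within the saline range and replicate 1 below it. The log2 fold change was −0.37 (SE 0.37, adjusted p = 0.580), between −0.85 and −0.01 with a library left out and 0.36 when scaled to the hepatocyte markers. The ratio of Abcb11 to Abcc2, both per length, does not depend on scaling and was 0.356 and 0.231 with APAP against 2.79, 1.795 and 0.865 with saline.

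Abcc3 (ENSMUSG00000020865, chromosome 11, 94343295 to 94392997), the basolateral pump for glucuronides, showed no common direction. It was at 425 and 186 CPM in the APAP livers, against 350, 310 and 232 CPM with saline. APAP replicate 1 was above all saline libraries and replicate 3 was below all of them. The log2 fold change of 0.04 (SE 0.39, adjusted p = 0.963) was −0.67 without replicate 1 and 0.51 without replicate 3. This difference between APAP libraries was 2.28-fold, which 3.94% of genes matched.

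Abcc4 (ENSMUSG00000032849, chromosome 14, 118482692 to 118706219), the basolateral pump for sulfated bile acids and cyclic nucleotides, was at 10.3 and 13.1 CPM in the APAP livers, against 7.26, 6.71 and 7.01 CPM with saline. Both APAP libraries exceeded all saline libraries, which were within 1.08-fold of each other. These CPM rest on 175 and 212 counts with APAP and 81, 101 and 105 counts with saline. Fitted on the log2 scale, the change was 0.74 (SE 0.25, unadjusted P = 0.0205, adjusted p = 0.125 edgeR quasi-likelihood test), which did not pass the threshold. It was between 0.55 and 0.91 with a library left out, and was 1.12 (adjusted p = 0.0468) with scaling to library size only and 1.52 (adjusted p = 0.0117) with scaling to the hepatocyte markers. Those scalings moved the median of all genes to 0.42 and 0.83.

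Abcb1a (ENSMUSG00000040584, chromosome 5, 8660077 to 8748575), a P-glycoprotein that exports hydrophobic drugs, was at 26.9 and 6.86 CPM in the APAP livers, against 9.05, 8.64 and 5.88 CPM with saline. Only APAP replicate 1 was high, at 342% of the saline mean, whereas replicate 3 lay inside the saline range. The fitted log2 fold change was 1.10 (SE 0.53, adjusted p = 0.257) and −0.19 without APAP replicate 1. Abcb1b, the sister gene that shares 15.5% of the 50-base words of Abcb1a, was between 0.705 and 2.67 CPM in all libraries, with a log2 fold change of −0.18 (SE 0.71, adjusted p = 0.904).

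Of 7 markers of bile duct cells, 5 were tested and 2 rose, namely Sox9 and Spp1, with log2 fold changes of 3.05 and 2.88 and adjusted p-values of 0.00194 and 0.00183. Krt19, a duct keratin, was at 23.6 CPM in replicate 1 and 2.72 CPM in replicate 3 against 1.25 to 2.54 CPM with saline, and Epcam at 8.23 and 2.41 against 1.46 to 2.34 CPM. The summed level of the 7 was 347 and 356 CPM with APAP and 47.1 to 52.3 CPM with saline. Most of this sum was Spp1, at 276 and 313 CPM with APAP and 37.7 to 42.6 CPM with saline. Cftr and Sctr, which mark mature ducts, were at most 0.332 and 0.0664 CPM in any library. The part of duct markers in the level of Abcb1a or Abcc3 was not tested.

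Other cell types of liver contribute transporters as well, and infiltrating cells differed between the groups. Of 6 neutrophil markers 5 were tested and 5 rose, with a sum of 67.7 and 103.2 CPM with APAP against 4.30 to 7.15 CPM with saline, and 2 of 4 monocyte markers rose (42.7 and 47.2 against 9.09 to 11.3 CPM). For markers of endothelial, Kupffer and stellate cells 0 of 6 passed the test on each list, and 0 of 2 tested lymphocyte markers. Their sums ranged from 112 to 179 CPM with APAP and 124 to 207 CPM with saline for endothelial cells, from 205 to 385 and 205 to 286 CPM for Kupffer cells, from 344 to 496 and 490 to 590 CPM for stellate cells, and from 3.41 to 3.46 and 1.54 to 5.38 CPM for lymphocytes. No gene of these 6 lists was at 0 in all libraries. Their part in the transporter levels was not tested.

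Levels of different transporters were compared per kilobase of merged exons. In saline livers Slco1b2 (316.5 ± 6.01 CPM per kb, SD, n = 3) and Slc10a1 (250.2 ± 71.8) came highest, before Abcb11 (155 ± 48.7), Abcc2 (93.9 ± 23.7), Abcc3 (52.2 ± 10.5), Slco1a4 (27.6 ± 4.25), Slco2b1 (21.8 ± 5.54), Slco1a1 (10.4 ± 7.66), Abcb1a (1.43 ± 0.315) and Abcc4 (1.09 ± 0.0432). In this order only Abcc2 and Abcc3, Abcc3 and Slco1a4, and Slco1a1 and Abcb1a were neighbours whose saline libraries did not overlap. In APAP livers Slc10a1 (81.8 ± 7.74 CPM per kb, SD, n = 2) came highest, before Abcc2 (72.5 ± 28.5), Abcc3 (53.7 ± 29.7), Slco1b2 (41.3 ± 28.7), Abcb11 (20.002 ± 1.95), Slco2b1 (14.1 ± 5.10), Slco1a4 (11.6 ± 12.7), Slco1a1 (4.35 ± 6.16), Abcb1a (3.08 ± 2.58) and Abcc4 (1.83 ± 0.312). Of these neighbours only Abcb11 and Slco2b1 did not overlap between libraries, which depends on the use of merged exons as gene length. With the longest transcript instead, 6 of 10 members kept their rank in APAP livers.

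**Figure D3:**
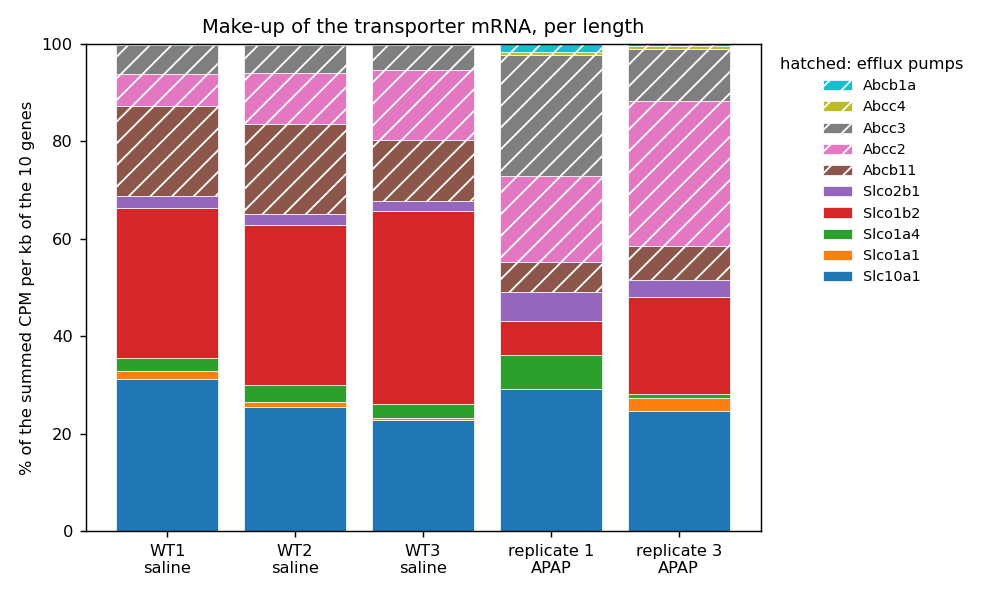
Share of each transporter in the summed CPM per kb of the 10 genes, for each saline and APAP library, with efflux pumps hatched. Slco1b2 and Abcb11 took smaller shares in both APAP libraries than in the saline libraries. Slco2b1, Abcc2, Abcc3, Abcc4 and Abcb1a took larger shares in both. A larger share is not a higher level, because the summed CPM per kb was lower with APAP.

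The make-up of the transporter RNA differed between the groups. The 5 uptake carriers summed to 146.6 and 159.8 CPM per kb with APAP and to between 545 and 720 with saline, and the 5 efflux pumps to 152 and 150.03 against 259 to 329. The ratio of uptake to efflux, which does not depend on the scaling of a library, was 0.964 and 1.07 with APAP and 2.22, 1.87 and 2.11 with saline, without overlap. Slco1b2 made up 7.04% and 19.9% of the 10 genes with APAP and 30.8% to 39.6% with saline. The share of Slc10a1 overlapped between groups, at 29.2% and 24.6% against 22.8% to 31.2%. Abcc3 made up 25.0% and 10.6% with APAP and 5.07% to 5.89% with saline, while its own level had no common direction. Abcc2 made up 17.5% and 29.9% with APAP and 6.58% to 14.4% with saline. The shares of Slco2b1, Abcc4 and Abcb1a were also larger in both APAP libraries than in any saline library. A larger share is not a higher level, because the sums of both sets were lower with APAP. In APAP replicates 1 and 3, Slco2b1 was at 81.2% and 48.2% of its saline mean and Abcc2 at 55.7% and 98.7%. Abcb1a was at 342% and 87.3%, and Abcc4 at 147% and 187%.

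The wider list of uptake carriers had more genes lower than higher. Of 23 further carriers, 16 were tested, 7 fell and 0 rose, with a median log2 fold change of −1.57. Slc29a1, a nucleoside carrier, had a log2 fold change of −1.73 (adjusted p = 0.0212, same edgeR test) and Slc10a5, an orphan relative of Slc10a1, one of −2.21 (adjusted p = 0.00513). Slc22a30, an organic anion carrier relative, was lower by 2.58 on the log2 scale (adjusted p = 0.0358, same edgeR test). Slc22a27 was at 0.588 and 0 CPM with APAP and between 28.0 and 43.2 CPM with saline. Slc22a29 had 0 counts in both APAP libraries and was at least 18.3-fold lower, and Slc22a3 (OCT3) had 3 and 1 counts with APAP and 25, 43 and 137 with saline. Because Xist and Ddx3y also separate the groups, sex-linked expression and treatment cannot be told apart for these carriers. Slco2a1, a prostaglandin carrier, had a log2 fold change of −0.03 (SE 0.31, adjusted p = 0.961). Among 15 Slco genes listed, 7 were tested, and only Slco1b2 passed.

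The wider list of exporters moved less uniformly. Of 17 further genes 15 were tested, 2 fell and 1 rose, with a median of 0.31. Slc47a1 (MATE1), the canalicular exporter of organic cations, was at 32.5 and 16.6 CPM with APAP against 146, 163 and 117 CPM with saline (log2 fold change −2.53, SE 0.36, adjusted p = 0.0130 from edgeR's test). Abcc6, a hepatocyte pump whose loss causes mineralization of connective tissue, was at 39.7 and 58.2 CPM against 126, 182 and 138 CPM (log2 fold change −1.60, adjusted p = 0.0257). Both genes had APAP libraries below all saline libraries. Abcc12 rose from 1, 1 and 0 counts to 38 and 34 counts (adjusted p = 0.0170). Abcg2 (BCRP), a canalicular pump for sulfates, was at 46.6 and 52.0 CPM against 36.8, 28.0 and 25.3 CPM, without overlap but with an adjusted p of 0.110. Abcb4, the phospholipid floppase, and the sterol pumps Abcg5 and Abcg8 had log2 fold changes of −0.56, 0.01 and 0.33, with adjusted p-values of 0.331, 0.992 and 0.479. The basolateral exporter pair Slc51a and Slc51b was not tested, with 0 counts for Slc51a in all libraries and at most 0.823 CPM for Slc51b.

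**Figure D4:**
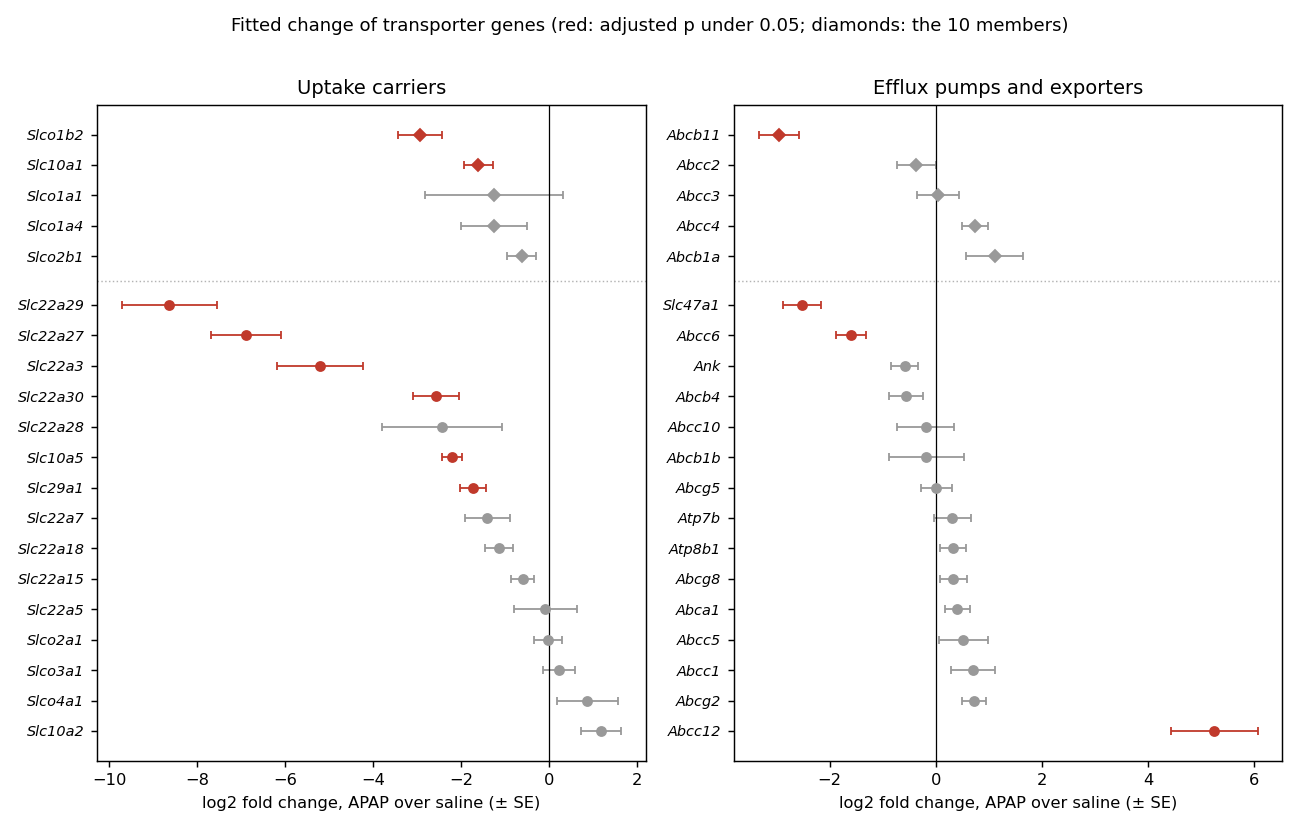
Fitted log2 fold change (APAP over saline) with its SE for the 10 members (diamonds) and further transporters tested (circles), with uptake carriers on the left and exporters on the right and a linear axis in each. Red marks an adjusted p under 0.05. Of the genes in red, all carriers are below 0, and among exporters only Abcc12 is above 0.

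Of 17 genes known to regulate these transporters, 13 had fitted values below 0, with a median log2 fold change of −0.55, and 2 fell. They were Cebpa, a hepatocyte differentiation factor (109.3 and 86.1 CPM against 287, 254 and 205 CPM, log2 fold change −1.35, adjusted p = 0.0330), and Stat5b, which relays growth hormone (29.5 and 28.7 against 97.2, 84.96 and 80.4 CPM, log2 fold change −1.59, adjusted p = 0.00981). Hnf4a, which sustains hepatocyte genes, had a log2 fold change of −0.95 with an adjusted p of 0.172. Nr1h4, the bile acid receptor FXR, was at 86.8 and 94.2 CPM against 135, 123 and 143 CPM (log2 fold change −0.57, adjusted p = 0.152). Its target Nr0b2 (SHP) overlapped between groups, with a log2 fold change of −0.50 (adjusted p = 0.588). Of 6 FXR-related genes 5 were tested, with fitted values below 0 for 4 and above 0 for 1. Only Cyp7a1, the rate-limiting enzyme of bile acid synthesis, passed edgeR's test, falling by 6.48 on the log2 scale (adjusted p = 0.00184). These levels do not measure FXR activity, which was not tested.

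NRF2, an oxidant-sensing factor, is known to act on Abcc2, Abcc3 and Abcc4. Of 7 other known target genes 3 rose and 0 fell in edgeR's test, with a median log2 fold change of 0.97. The rest did not pass, and fitted values were above 0 for 6 of the 7 and below 0 for 1. Srxn1 (sulfiredoxin) was at 941 and 598 CPM against 44.3, 47.1 and 45.3 CPM (log2 fold change 4.08, SE 0.29, adjusted p = 0.00181), and Hmox1 (heme oxygenase) at 89.9 and 121.6 against 28.1, 16.1 and 41.4 CPM (log2 fold change 1.89, adjusted p = 0.0358). Slc7a11, the cystine carrier, rose from 1, 0 and 0 counts to 715 and 285. None of the 3 Abcc members passed the test in the same libraries.

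Of 10 genes for anchoring and sorting of transporters in the membrane, 2 rose and 0 fell. They were Ezr (ezrin), at 24.6 and 11.4 CPM against 6.18, 6.44 and 5.75 CPM (log2 fold change 1.55, adjusted p = 0.0450), and Stx3 (syntaxin 3), at 7.23 and 9.95 against 3.32, 3.39 and 2.87 CPM (log2 fold change 1.43, adjusted p = 0.0400). Ezrin is better known from duct cells, and radixin from hepatocytes. Rdx (radixin), which tethers Abcc2 at the canaliculus, was at 132 and 149 CPM against 283, 245 and 173 CPM (log2 fold change −0.73, adjusted p = 0.167). Pdzk1, a scaffold of Slco carriers, was at 23.9 and 42.7 CPM against 88.0, 62.9 and 58.8 CPM (log2 fold change −1.07, adjusted p = 0.0981). For both genes the APAP libraries lay below all saline libraries.

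The genes whose pattern over the 5 libraries came closest to that of Slc10a1, by the root mean square difference of mean-centred log2 CPM, were Slc27a5, a bile acid and fatty acid ligase (0.0597), Mthfd1, a folate enzyme (0.0800), and Fmo1, a flavin monooxygenase (0.116). For Abcc4 they were Bin1 (0.0297), Twsg1 (0.0525) and Gtf2ird1 (0.0551). This is a description of 5 libraries in which treatment sets much of each pattern.

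**Figure D5:**
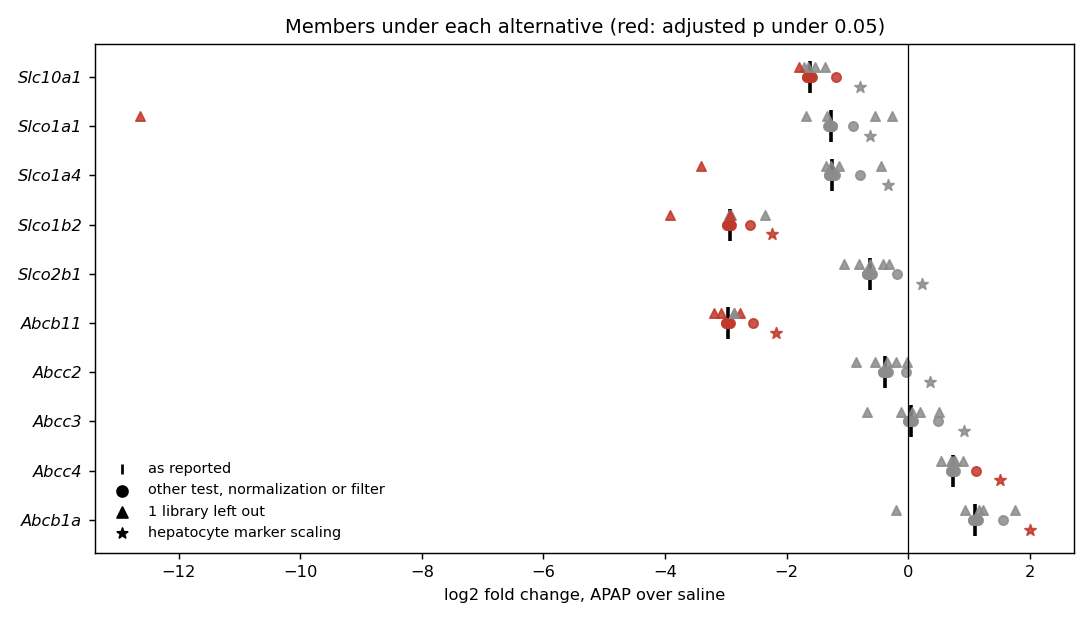
Log2 fold change of each member as reported (vertical mark), under other tests, normalizations and filters (circles), with 1 library left out (triangles) and with scaling to hepatocyte markers (stars), with red for an adjusted p under 0.05. Slc10a1, Slco1b2 and Abcb11 lie below 0 and Abcc4 above 0 at every point, while Slco1a1 reaches −12.65 without APAP replicate 3 and Abcb1a falls below 0 without APAP replicate 1.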

How the data were processed

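Bulk RNA-Seq of liver was analysed for 2 APAP and 3 saline libraries. The authors used a NovaSeq instrument and HISAT2 alignment and deposited raw read counts per gene, without normalization. The processing notes name GRCm38 (mm10). Annotation, strand setting and program versions are not given in the sources used here. The 5 FPKM columns were not used. Coordinates are those of the deposited table. Gene lengths came from GENCODE M21.

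Tests were run with edgeR 4.0.16 under R 4.3.3 (filterByExpr with a minimum count of 10 and a minimum total of 15, TMM, glmQLFit and glmQLFTest, Benjamini-Hochberg adjustment over 13734 genes). The standard error is the size of the log2 fold change divided by the square root of F. Alternatives were the likelihood ratio and exact tests, DESeq2 1.42.0 (without independent filtering), RLE, upper-quartile or library size scaling, other filters, the study's thresholds, each library left out, and scaling to 6 hepatocyte markers, which was added later. A count of 3 was taken as the floor of detection, which corresponded to between 0.176 and 0.269 CPM and covers counting error only. Scripts were tested on simulated counts. Within groups, no library repeated another (chi-square of counts, 43.2 to 92.2 for each degree of freedom). The labels do not state that they come from separate mice, so p-values measure the spread between these libraries.

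The members and lists were chosen with earlier results of these data known. All 10 members are named. From each list, up to 8 genes with an adjusted p under 0.05 are named, except for results not reported here, as are genes whose role bears on a member. Abcb1b, Abcg2, Abcb4, Abcg5, Abcg8, Slc51a, Slc51b, Slco2a1, Hnf4a, Nr1h4, Nr0b2, Rdx and Pdzk1 belong to the latter, and the duct markers Krt19, Epcam, Cftr and Sctr were chosen after their values were seen. For Slc10a1 and Abcc4 the 3 closest genes are named. Figures were drawn in Python 3.11.15 with matplotlib 3.10.9.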

Additional observations from a re-analysis of the deposited data

How the results depend on the processing

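No paired analysis was possible because the saline columns carry no number that ties them to single samples. Neither the labels nor the Methods of the study state that saline and APAP livers were paired, so the groups were compared as independent. With other tests, normalizations, filters or the study's thresholds, 3 members were called lower, and 2 with hepatocyte marker scaling. Leaving out 1 library gave 0 to 3, namely 0 without WT2, Abcb11 alone without WT1, Slco1a4 alone without APAP replicate 1, the reported 3 without WT3, and Slco1a1, Slco1b2 and Abcb11 without APAP replicate 3. Members called higher numbered 1 with library size only or the study's thresholds and 2 with hepatocyte marker scaling. Genes called in all rose from 993 to 1835 with the likelihood ratio test, 1776 with the exact test and 2093 with DESeq2. They rose to 3228 with the study's thresholds and 4735 with hepatocyte marker scaling, and were 165 to 922 with 1 saline library left out. The count at the study's thresholds is from this fit of 5 libraries, and the study itself reported fewer genes. Of the genes called, 51.2% were higher as reported, 77.8% with library size only and 94.4% with hepatocyte marker scaling. The median log2 fold change of uptake carriers was −0.63 with hepatocyte marker scaling and −1.71 to −1.26 with 1 library left out. That of efflux pumps was 0.49 with library size only, 0.92 with hepatocyte marker scaling and −0.19 to 0.51 with 1 library left out. The log2 fold change of Abcc3 was −0.00049 with DESeq2 and with RLE factors, and −0.67 to 0.51 with 1 library left out. That of Abcb1a was −0.19 to 1.76 with 1 library left out. With hepatocyte marker scaling Slco2b1 was at 0.23, Abcc2 at 0.36 and Abcb1a at 2.01 (adjusted p = 0.0337). With the longest transcript as gene length, 6 of 10 members kept their rank of level per length in APAP livers. The cause of these changes was not tested. A single APAP library on its own is assumed to vary like the saline libraries. The 2 APAP libraries lay on opposite sides of the saline mean for Abcc3 and Abcb1a.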

Other observations

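Slco1a1, Slco1a4 and Slco1b2 lie in a stretch of 684 kb on chromosome 6 of GRCm38 (141524368 to 142208521) that holds 9 genes of the deposited table, of which 5 had at most 3 counts in every library (Slco1c1, Gm5724, Gm6614, Slco1a6 and Gm20400). The 3 carriers did not move together in the 2 APAP libraries. Replicate 1 had the lower level of Slco1a1 and Slco1b2 and the higher level of Slco1a4.

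A long noncoding gene on the plus strand, RP24-309B5.2 (141866358 to 141875220), lies between Slco1a4 and Slco1a1 and was read after its values were seen. It was at 5.17 CPM in APAP replicate 1 and 0.680 CPM in replicate 3, against 4.66, 4.12 and 4.21 CPM for saline. Its low library was that of Slco1a4, and APAP replicate 1, with 0 counts of Slco1a1, had its highest value. These values rest on 88 and 11 counts with APAP and on 52, 62 and 63 counts with saline.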
